A study of Mus musculus with 2 samples.

Results

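Chemokines, interferons, their receptors and the genes that interferon induces were followed in bone-forming cells, primary osteoblasts of the mouse, cultured with TGF-beta1. The 56 probes were all those among 3757 on the array whose name in the deposited workbook holds the word chemokine, interferon or myxovirus, or the older chemokine name small inducible cytokine. A further probe with a matching name was left out because it also holds the word kinase. In the treated culture, serum-starved osteoblasts received 2 ng/ml TGF-beta1 for 24 h. The untreated culture was held in the same alphaMEM with 0.2% FBS and no TGF-beta1. Each group was a single sample on a single Cy3 array. Replicate error is therefore unknown, no difference was given a statistical test, and the differences given are those between 2 arrays. The labels give no mouse strain, age or bone of origin, and no purification of the osteoblasts.

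Chemokines are small secreted proteins that draw leukocytes along a gradient through G protein-coupled receptors. They are grouped by the spacing of their first cysteines into the CC, CXC, C and CX3C families. Type I interferons bind a receptor of the chains Ifnar1 and Ifnar2 and act through a transcription factor complex that holds Irf9. That complex switches on antiviral genes such as Isg15 and the Ifit and Mx genes. In bone, osteoblasts are a source of chemokines for osteoclast precursors, and TGF-beta, which is stored in bone matrix, restrains many immune cells.

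The regulatory letters through which interferon acts are shown first, since some of the interferon-induced genes described below carry them. The core of the interferon-stimulated response element was searched on both strands as GAAA, then 2 bases of any kind, then GAAA, in RefSeq windows (GRCm38.p6) running from 250 bases before to 50 after each gene's start. Of 49 symbols among the members, 39 had such a window, 46 windows in all. The myxovirus resistance 1 and interferon activated gene 203 probes had no symbol by accession and were not among those searched, and Ccl2, Ccl5, Cxcl5 and Ifna7 were without a window. The element stood in at least 1 window of 6 genes, which are Isg15, Ifit1, Ifit3, Ifna11, Ccl19 and Cxcl14. That is 4 of 15 interferon genes and 2 of 24 chemokine genes with a window, where 3.99% of all 27025 genes hold it. It stood in 6 of 46 member windows (13%) and in 3.44% of all 32851 windows. A match describes letters and is not a shown binding site, and the windows hold no measurement of these cells. The 3 windows of Isg15, Ifit1 and Ifit3 are given 5′ to 3′ on the strand of the gene, with matches in capitals. Isg15 is at chr4:156200769-156201068 (minus strand), Ifit1 at chr19:34640639-34640938 (plus strand) and Ifit3 at chr19:34583279-34583578 (plus strand).
Isg15: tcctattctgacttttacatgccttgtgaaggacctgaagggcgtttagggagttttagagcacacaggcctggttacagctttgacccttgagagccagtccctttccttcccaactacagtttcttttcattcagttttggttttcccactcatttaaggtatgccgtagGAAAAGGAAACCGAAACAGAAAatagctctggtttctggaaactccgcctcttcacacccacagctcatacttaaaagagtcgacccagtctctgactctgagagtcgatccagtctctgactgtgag
Ifit1: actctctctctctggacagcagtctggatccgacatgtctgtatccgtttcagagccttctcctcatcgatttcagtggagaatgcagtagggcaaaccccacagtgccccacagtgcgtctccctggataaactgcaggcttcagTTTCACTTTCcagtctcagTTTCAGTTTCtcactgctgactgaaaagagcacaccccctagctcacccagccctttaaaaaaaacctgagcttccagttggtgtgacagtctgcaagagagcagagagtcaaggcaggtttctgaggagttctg
Ifit3: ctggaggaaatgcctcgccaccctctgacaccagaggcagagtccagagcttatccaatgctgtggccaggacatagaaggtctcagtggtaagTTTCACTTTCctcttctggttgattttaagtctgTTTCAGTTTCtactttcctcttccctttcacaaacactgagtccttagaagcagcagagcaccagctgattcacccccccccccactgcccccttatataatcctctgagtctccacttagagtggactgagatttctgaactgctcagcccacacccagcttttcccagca
In Isg15, 3 overlapping matches begin 78, 72 and 66 bases before the start. In Ifit1 the matches begin 104 and 85 bases before it and in Ifit3 156 and 122 bases before it, all of them on the opposite strand, so that they read as TTTC, 2 bases and TTTC. Of the 6 genes that hold the element, only Isg15 gave a signal above the threshold described next.

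A probe was taken as detected on an array when its deposited spot intensity exceeded 87.4, the authors' threshold, which is set by the brightest of 8 control spots for lambda phage. This held for 11 of the 56 probes on both arrays (21.2% of all probes), for 0 on the TGF-beta1 array alone and for 1, Ccl2, on the untreated array alone. The 12 detected probes are 21.4% of the 56, where 26.5% of all probes on the array were detected on at least 1 array. Of the 11 detected on both arrays, 1 was lower by 2-fold or more in treated cells (2.26% of the 795 probes detected on both arrays) and 0 were at least 2-fold higher (1.51%). At 1.5-fold, 2 were lower (8.18%) and 0 were higher (7.17%). With so few members, nothing beyond the 2 probes themselves is read from these counts. The median log2 ratio of the 12 detected members was 0.09, against -0.008 over the 995 detected probes of the array. Detected members were therefore close to level as a group, and both probes past 1.5-fold belong to interferon-induced genes. Less RNA per cell and fewer cells of a type cannot be told apart in such bulk samples.

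**Figure D1:**
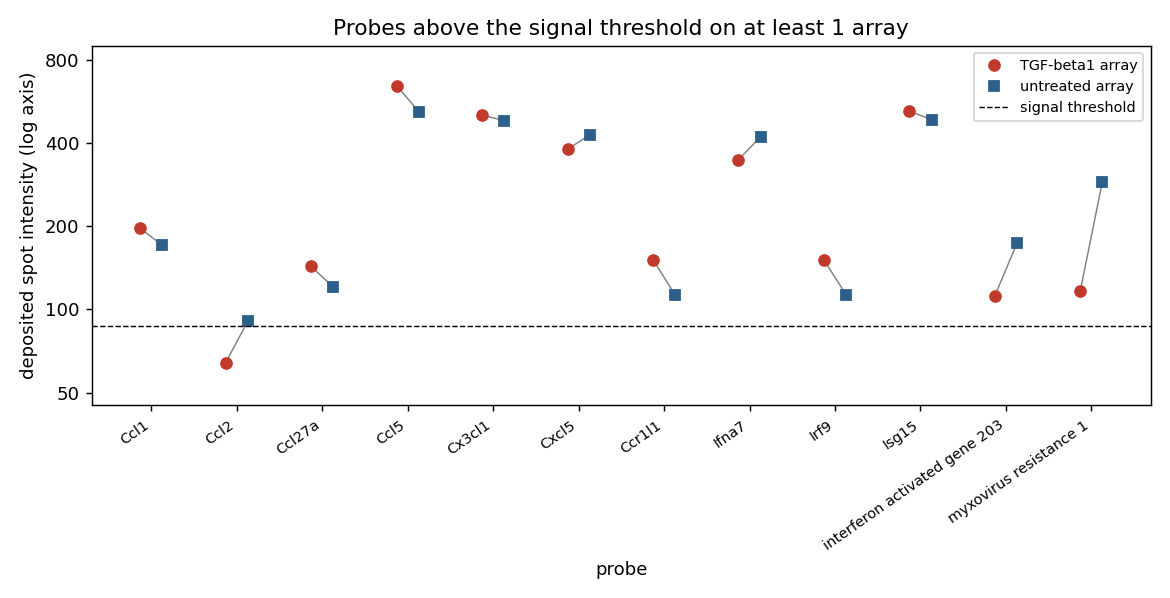
Deposited spot intensity (log axis) of the 12 detected probes, with the signal threshold (87.4) as a dashed line, with a circle for the TGF-beta1 array and a square for the untreated array, joined by a line. The widest gaps are those of the myxovirus resistance 1 and interferon activated gene 203 probes, and Ccl2 passes the threshold in untreated cells alone.

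The array carried 14 CC chemokine ligands, of which 4 were detected. Ccl5, which attracts T cells and monocytes, had a signal of 647 with TGF-beta1 and 520 without, a log2 ratio of 0.32. Ccl1, a ligand of the receptor Ccr8 made mainly by activated T cells, had 197 with TGF-beta1 and 171 without, a log2 ratio of 0.20. Ccl27a, known for homing of T cells to skin, had 143 with TGF-beta1 and 120 without, a log2 ratio of 0.25. All 3 were higher on the treated array by less than 1.5-fold. Ccl2, the main attractant of monocytes and known to be made by osteoblasts, had 64.2 with TGF-beta1 and 90.9 without. The untreated signal lay only just above the threshold, so Ccl2 was at least 1.04-fold lower, and the measured quotient was 0.71. The lambda control spots, the one set measured repeatedly within the arrays, had an SD of 0.20 in their log2 ratio. These spots are dim, with a mean of 67.0, so their SD is only a rough guide for brighter spots and holds no spread between cultures. As deposited, the differences of Ccl1 and Ccl27a were about that size and that of Ccl5 was somewhat above it. The block of Ccl1, Ccl27a and Ccl2 had a median of -0.40. With blocks centred the log2 ratio was 0.50 for Ccl1 and 0.55 for Ccl27a, against 0.25 for Ccl5. That of Ccl2, -0.50 as deposited, became -0.21 with blocks centred, -0.21 after subtraction of the neighbouring spots' median and -0.16 after loess.

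The other 10 CC ligands were under the threshold on both arrays, with signals of 5.74 to 86.0 on the TGF-beta1 array and 16.0 to 73.3 on the untreated array. Ccl19, a ligand of Ccr7 in lymphoid tissue, came nearest, with 86.0 with TGF-beta1 and 73.3 without. The remaining ones were Ccl6, Ccl9, Ccl11, Ccl12, Ccl17, Ccl21b, Ccl24, Ccl25 and Ccl28. Of the 10, 8 had the lower signal with TGF-beta1, where 65.9% of all probes under the threshold on both arrays did. Set against the median of its own block, 4 of the 10 were lower, where 53.9% of all such probes were. The extremes, named after their values were seen, were Ccl6 at a log2 ratio of -1.48 and Ccl9 at -0.92. Ccl6 had only 5.74 with TGF-beta1 and 16.0 without, and Ccl9 had 32.3 with TGF-beta1 and 61.2 without. Such signals are not set apart from the control spots, and these ratios are descriptions of dim spots.

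Of the 6 ligands of the CXC, C and CX3C families, 2 were detected and both were nearly level as deposited. Cx3cl1 (fractalkine), a chemokine that is anchored in the membrane of the cell that makes it, had 506 with TGF-beta1 and 482 without, a log2 ratio of 0.07. Cxcl5, an attractant of neutrophils, had 380 with TGF-beta1 and 429 without, a log2 ratio of -0.17. Both differences were smaller than the SD of the lambda spots. Cx3cl1 gave -0.009 after loess, 0.46 with blocks centred and 0.20 after subtraction of the neighbouring spots' median. Cxcl5 gave 0.22 with blocks centred and -0.05 after subtraction of the neighbours' median. Xcl1 (lymphotactin), Cxcl14, Cxcl15 and the probe named small inducible cytokine subfamily B member 11 were under the threshold, with 32.3 to 54.5 with TGF-beta1 and 32.9 to 57.5 without.

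Of 13 chemokine receptor probes, 1 was above the threshold. This was Ccr1l1, a mouse relative of the receptor Ccr1. It had 152 with TGF-beta1 and 113 without, a log2 ratio of 0.43. This was the highest of the 12 detected members as deposited, but not with blocks centred, where Ccl27a was. Its block of the array, A3, had a median log2 ratio of 0.15, and the value became 0.18 when blocks were centred. The other 12 receptors were under it on both arrays. Ccr8 came nearest, with 87.0 with TGF-beta1 and 76.4 without, just under the threshold, and Ccr7 had 59.1 with TGF-beta1 and 69.1 without. Cxcr3, the receptor of interferon-induced chemokines on T cells, had 32.4 with TGF-beta1 and 44.0 without. Others under the threshold were Ccr3, Ccr4, Ccr6, Ccr9, Ccr10, Cx3cr1, Xcr1 and the scavenging receptor Ackr3. For some of these the name in the workbook differs from the symbol of the accession. The probe called receptor 9 carries the accession of Ccr10 and the probe called receptor 10 that of Ccr9. The probe called receptor 1-like 2 carries that of Ccr3. The accession was followed here.

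For 3 detected ligands, a receptor known from the textbook was set beside the ligand, and pairs of the other detected ligands are not given here. Ccl1 was detected and its receptor Ccr8 reached 87.0 with TGF-beta1 and 76.4 without, under the threshold on both arrays. Ccl27a was detected, while its receptor Ccr10 had 61.8 with TGF-beta1 and 65.3 without. Cx3cl1 was detected, while Cx3cr1, its receptor on monocytes, had 47.8 with TGF-beta1 and 50.7 without. Signals of different probes are not levels on a common scale, so these pairs say only which probes passed the threshold.

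**Figure D2:**
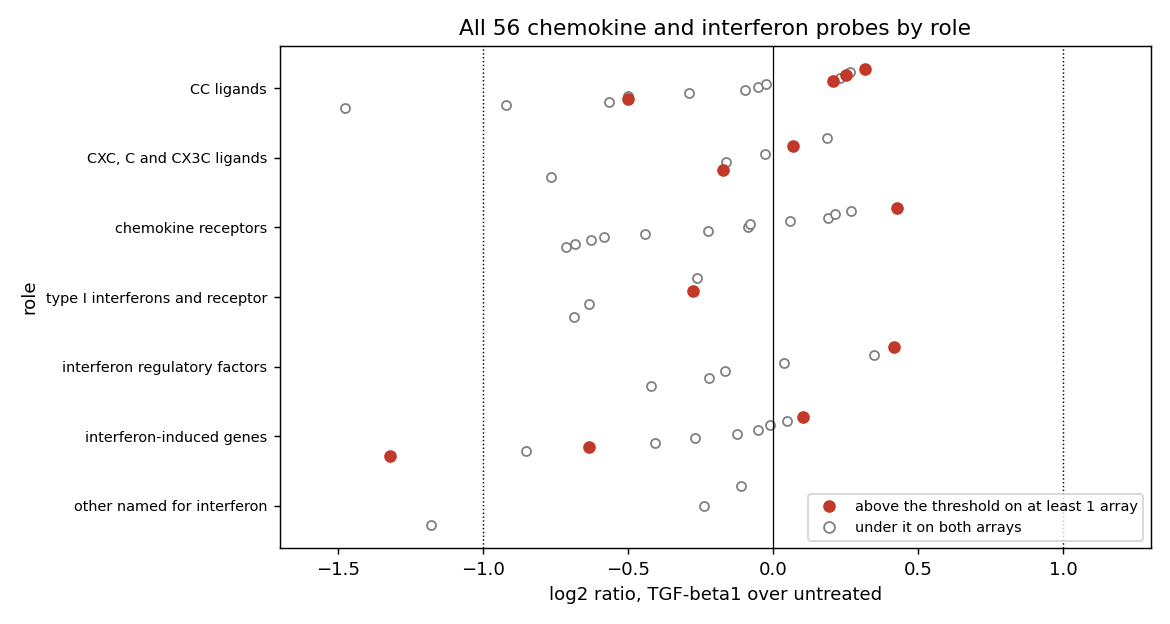
Log2 ratio (TGF-beta1 over untreated, horizontal axis) of all 56 probes, in rows by role, with filled points for the 12 detected probes and open points for the 44 others. Dotted lines mark 2-fold either way, and the only filled point past them is myxovirus resistance 1, at -1.32.

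On the interferon side, 5 of 23 probes were detected, at log2 ratios of -1.32 to 0.42. Among the interferons themselves, Ifna7 had 348 with TGF-beta1 and 422 without, a log2 ratio of -0.28. That direction was not firm, since subtraction of the neighbouring spots' median gave 0.05. Interferon alpha genes are close copies of each other, and whether this signal came from Ifna7 alone is uncertain. The probes of 2 other copies were under the threshold, Ifna11 with 35.8 with TGF-beta1 and 43.0 without and gene 8 of the family with 13.4 with TGF-beta1 and 20.9 without. Ifnar2, a chain of the receptor through which they act, had 22.7 with TGF-beta1 and 36.4 without and was not detected.

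Of 6 interferon regulatory factors, 1 was detected. Irf9, the DNA-binding subunit of the complex that type I interferon activates, had 151 with TGF-beta1 and 113 without, a log2 ratio of 0.42. It was 1.33-fold higher on the treated array, with a block median of 0.15, and the value became 0.16 when blocks were centred. The factors of the other 5 probes had 17.8 to 71.1 with TGF-beta1 and 19.9 to 55.9 without. Irf3, which triggers interferon production after virus sensing, had 17.8 with TGF-beta1 and 19.9 without. Irf7, which amplifies that response, had 32.6 with TGF-beta1 and 31.7 without. Irf8, which directs myeloid cells, had 71.1 with TGF-beta1 and 55.9 without, and Irf5 was dim as well.

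Interferon-induced genes gave the 2 differences past 1.5-fold among the 11 members detected on both arrays. The probe that the workbook names myxovirus (influenza virus) resistance 1 had 116 with TGF-beta1 and 290 without, a log2 ratio of -1.32 and past 2-fold. Mx proteins are GTPases of the dynamin family that block influenza and related viruses. It had the fifth lowest ratio of 795 probes detected on both arrays and the lowest of 79 probes in its block. Its 24 neighbours within 2 rows and 2 columns ran from -0.33 to 0.72, with a median of -0.08, all above the value of this spot. The accession beside it matched no entry of the gene table used for names, and that table lists Mx1 of the reference strain as a transcribed pseudogene. The probe for myxovirus resistance 2 had 28.9 with TGF-beta1 and 34.8 without and was not detected.

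Interferon activated gene 203, a nuclear protein of the p200 family, had 112 with TGF-beta1 and 174 without. It was 1.55-fold lower, with a log2 ratio of -0.63 and a block median of -0.08. The treated signal lay 1.28 times above the threshold and the untreated signal 1.99 times above it. Its neighbours ran more widely, from -0.78 to 1.39, with a median of -0.001.

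Isg15, a ubiquitin-like protein attached to other proteins in the antiviral state, did not share this direction. It had 523 with TGF-beta1 and 487 without, a log2 ratio of 0.10, under the SD of the lambda spots. Ifit1, Ifit2 and Ifit3, antiviral proteins that recognise foreign RNA, were under the threshold on both arrays. Ifit1 had 49.4 with TGF-beta1 and 47.8 without, and Ifit2 had 39.7 with TGF-beta1 and 41.2 without. Ifit3 had 27.1 with TGF-beta1 and 48.9 without, in a block, F4, whose median was -0.56. Ifi47, a GTPase induced by interferon gamma, came near the threshold with 77.8 with TGF-beta1 and 84.8 without. The 2 probes for p200 family genes 202A and 202B, which the accession table merges as Ifi202b, had 51.4 and 58.8 with TGF-beta1 and 68.2 and 59.2 without. Of the windows printed above, only that of Isg15 therefore belongs to a gene with a detected signal, and that signal was level.

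The last 3 probes carry interferon in their names only by history or function and were all dim. Il18bp, which neutralises the inducer of interferon gamma, had 28.0 with TGF-beta1 and 33.0 without. Ifrd1, a transcriptional regulator, had 14.3 with TGF-beta1 and 32.4 without, in block F4. The probe named interferon response element binding factor 1 had 32.3 with TGF-beta1 and 34.9 without.

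**Figure D3:**
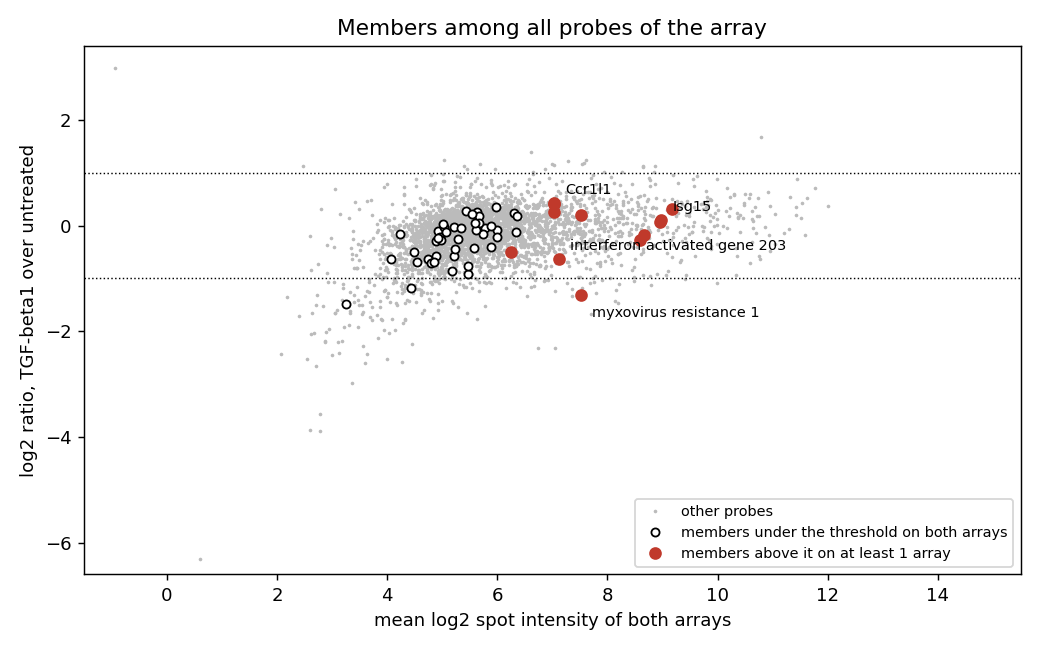
Log2 ratio (TGF-beta1 over untreated) against the mean log2 spot intensity of both arrays, with small grey points for other probes, filled points for the 12 detected members and open points for the 44 others. The myxovirus resistance 1 probe lies at the lower edge of the cloud, Isg15 lies near 0, and most open points sit in the dim part of the array.

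Dim members had the lower signal with TGF-beta1 more often than not, as did dim probes in general. Of the 44 members under the threshold on both arrays, 34 (77.3%) had a ratio under 1, where 65.9% of all such probes did. Among members detected on both arrays it was 4 of 11 (36.4%), where 46.8% of all such probes did. Probes of a family often lay side by side, and the median log2 ratio of the 48 blocks ran from -0.84 to 0.15. The receptors Cxcr3, Ccr9, Ccr3 and Ccr4 lay together in block B1, with log2 ratios of -0.71 to -0.44 and a block median of -0.46. The 5 receptor probes of block A3 ran from -0.23 to 0.43, with a block median of 0.15. Across the 44 dim probes, which share both arrays and in part a block, the log2 ratio and the block median had a Pearson r of 0.64 and a Spearman rho of 0.63. Across the 12 detected members they had a Pearson r of 0.008 and a Spearman rho of 0.30.

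Set against the median of its own block, a dim probe was lower in 26 of 44 members (59.1%), where 53.9% of all dim probes were. The 2 sides of the set differed in this count, with 15 of 18 interferon probes and 11 of 26 chemokine probes. In the interferon-induced class it was 7 of 7. This split was seen only after the values were known, rests on signals under the threshold and was not tested.

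**Figure D4:**
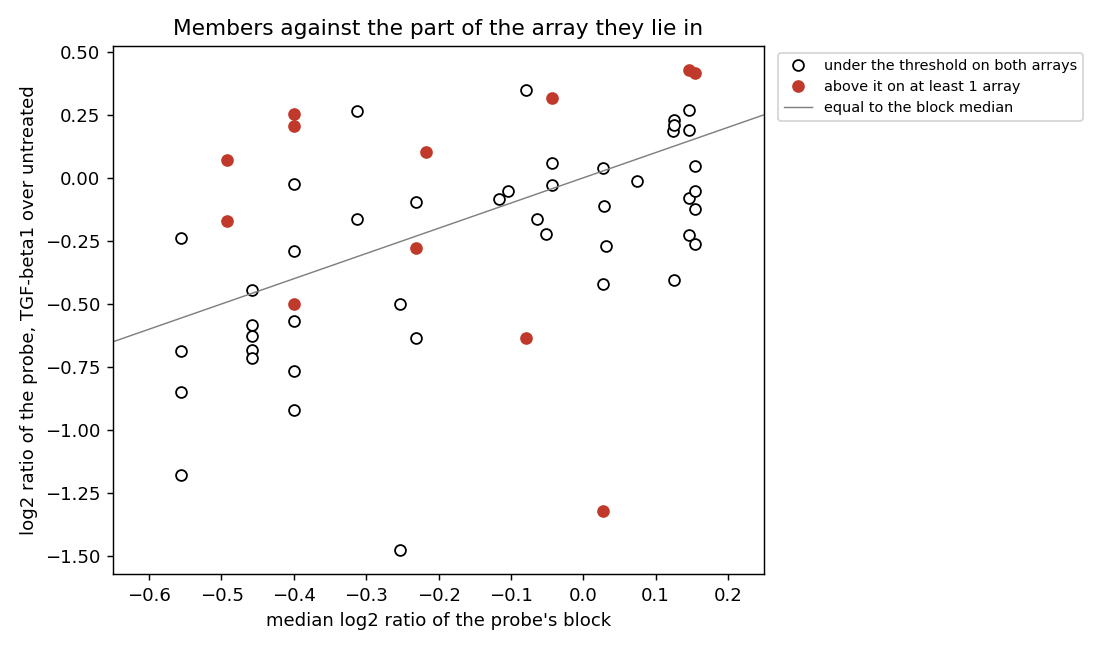
Log2 ratio of each of the 56 probes (vertical axis) against the median log2 ratio of the block of the array it lies in (horizontal axis), filled where the probe was above the threshold on at least 1 array. Open points follow the line of equal values loosely, and the filled point far below the line at the bottom right is myxovirus resistance 1.

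Other genes of the same pathways, from lists drawn up by function, were measured by 40 further probes, of which 11 were detected on at least 1 array. Of the 10 detected on both, 0 were at least 1.5-fold higher (7.17% of all such probes) and 2 at least 1.5-fold lower (8.18%), of which 1 was past 2-fold (2.26%). Of the 11, 9 had the lower signal with TGF-beta1, where 50.4% of all detected probes did. That direction was not firm for all of them. With blocks centred, Trim21, Psme1 and Ikbke were higher with TGF-beta1 and Myd88 was lower. Interferon-stimulated effectors had 3 of 8 probes detected, all lower. Adar, an enzyme that edits double-stranded RNA, had 92.1 with TGF-beta1 and 146 without, a log2 ratio of -0.67. Sp100, a nuclear body protein, had 112 with TGF-beta1 and 158 without, a log2 ratio of -0.49. Trim21, an antibody receptor inside cells, had 214 with TGF-beta1 and 281 without, a log2 ratio of -0.39 that became 0.23 with blocks centred and -0.20 after subtraction of the neighbours' median.

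In antigen presentation, 3 of 11 probes were detected. B2m, the invariant chain of class I histocompatibility complexes, had 242 with TGF-beta1 and 350 without, a log2 ratio of -0.53. The proteasome activator Psme1 was level as deposited, with 534 with TGF-beta1 and 544 without. Its log2 ratio was 0.27 with blocks centred and 0.49 after subtraction of the neighbours' median. H2-Eb1, a class II chain, was level as deposited too, with 679 with TGF-beta1 and 671 without. It gave 0.06 with blocks centred and 0.26 after subtraction of the neighbours' median. Of 9 probes for sensing upstream of interferon, 3 were detected. Nfkbia, which holds NF-kappaB in the cytoplasm, had 123 with TGF-beta1 and 278 without, a log2 ratio of -1.18. Ikbke, a kinase that activates Irf3, had 181 with TGF-beta1 and 196 without, and the adaptor Myd88 had 105 on both arrays. In interferon signalling, 1 of 6 probes was detected, Stat4, at least 1.21-fold lower with 82.7 with TGF-beta1 and 106 without. Stat2 and Jak2 were not detected. Of 6 genes of chemokine receptor coupling and scavenging, Sdc4 alone was detected, with 89.5 with TGF-beta1 and 104 without.

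Markers of osteoblasts were checked against those of cells that make and sense chemokines. Of 6 osteoblast probes 5 were detected, 1 with the higher and 4 with the lower signal with TGF-beta1. Bglap (osteocalcin) had 840 with TGF-beta1 and 846 without, and Col1a2 had 1132 with TGF-beta1 and 1174 without. Alpl was the higher one, with 124 with TGF-beta1 and 94.1 without. Sparc had 631 with TGF-beta1 and 946 without, a log2 ratio of -0.58 that became 0.04 with blocks centred. The summed signal of the osteoblast list was 2840 with TGF-beta1 and 3355 without. Ibsp, a protein of mineralizing matrix, was lower in treated cells by at least 2.74-fold. The leukocyte genes Ptprc and Coro1a were under the threshold, with 28.1 and 56.1 with TGF-beta1 and 43.4 and 53.4 without. Of 5 macrophage and osteoclast probes 2 were detected, and Tyrobp had 687 with TGF-beta1 and 481 without, while Ctsk was at least 1.09-fold lower with 56.8 with TGF-beta1 and 95.8 without. Their summed signal was 869 with TGF-beta1 and 691 without, a difference carried by Tyrobp, and Fcgr1, Fcgr3 and Acp5 were under the threshold. Of 6 lymphocyte probes 1 was detected, Cd79b, while Cd3e, Cd3d, Cd3g and Ms4a1 were not; the summed signal of the 6 was 354 with TGF-beta1 and 311 without, mostly from probes under the threshold. Of 5 megakaryocyte probes 2 were detected. Gp1bb had 390 with TGF-beta1 and 286 without, and Gp1ba had 118 with TGF-beta1 and 135 without. The summed signal of the 5 was 641 with TGF-beta1 and 552 without, a difference carried by Gp1bb. Such sums add probes without a common scale and give no amount of a cell type. No endothelial marker matched a probe. The part of such cells in the chemokine signals was not tested.

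**Figure D5:**
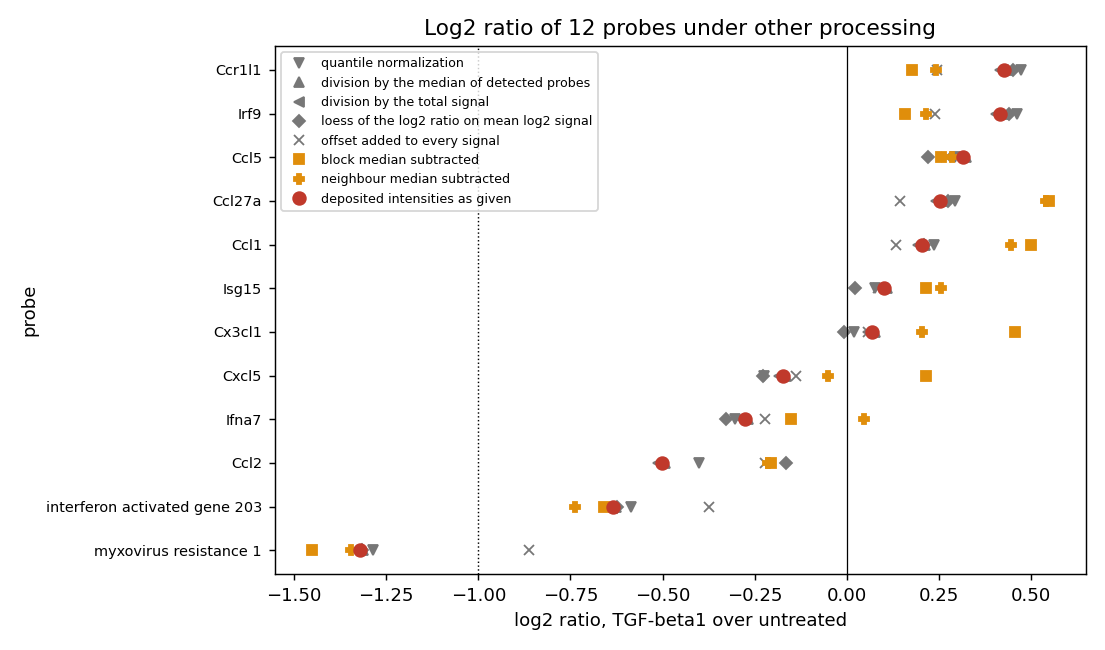
Log2 ratio (TGF-beta1 over untreated) of the 12 detected members from the deposited intensities (circles) and under 7 other ways of processing (other symbols), 1 row a probe. The myxovirus resistance 1 probe lies at or below -1.29 in all of them except the added offset, where it lies at -0.86.

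The direction held in every setting for 9 of the 12 detected members and turned in at least 1 setting for Cx3cl1, Cxcl5 and Ifna7. Several settings could hardly turn a direction. The added offset cannot do so, and the authors' ratio is the same quotient. Division by the median or by the total moved the median log2 ratio of probes detected on both arrays by only 0.009 and -0.01. The myxovirus resistance 1 probe ran from -1.45 to -0.86 and the interferon activated gene 203 probe from -0.74 to -0.37. Isg15 ran from 0.02 to 0.26, on the other side of 0 throughout. The whole deposited set was of similar size on both arrays, with a summed signal of 431093 on the TGF-beta1 array and 427889 on the untreated array, and 866 and 924 probes above the threshold there. The intensities were globally normalized before deposit, so near-equal totals may follow from that step and say nothing of the cultures. Probe sequences were not used here, and cross-hybridization between related genes was not tested.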

How the data were processed

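Total RNA of both cultures was labelled with Cy3 and each sample lay on an Atlas Glass Mouse 3.8 array, per the labels' protocols and the file headers. The deposited spot intensity was on a linear scale and globally normalized, per the file headers, with background already removed as far as the values show, since 3 intensities with TGF-beta1 lay below 0. Neither scanner nor background method is given in the sources used here. The authors' deposited ratio matched the quotient of both intensities within 0.0001 for 3754 of 3754 probes that had it. Workbook rows and ratio rows, which carry the probe identifiers, stand in the same order, and 3774 of 3774 ratios were the same. In 8 sheets, 16 columns of per-sample values match no sample label and were not used. 17 control spots without identifier were left out.

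From the deposited intensities, log2 ratios were computed with nothing added. A bound for a probe detected on 1 array divided the bright signal by the dim one, or by the lowest detected signal of the dim array where that was higher. Symbols came from unversioned accessions in a RefSeq table of GRCm38.p6 for 3597 probes and for 50 of the 56; the other 6 keep the file's name. Alternatives were quantile normalization, division by the median or total, loess with a span of 0.4, an offset of 96.7 (the 10th percentile of detected signals), the authors' ratio, other signal thresholds, and subtraction of block or neighbour medians, re-centred on the array median. All members above the threshold were named, with a fixed set of well-known genes and the 4 brightest others; remaining dim members are named to account for the probes, with their values known. A few genes are counted but not reported by name here. The members, roles, lists and rules were chosen with earlier results of these data known. The fold rules and the block subtraction were checked on simulated signals with known changes. There, all probes of a block were shifted alike and changes were placed in bright probes only. That check therefore does not show whether block subtraction suits the probes measured here. A planned comparison of protein sequences was not run. The number of arrays limits the precision. Python 3.11.15, pandas 2.3.3, numpy 2.4.6 and statsmodels 0.14.6 were used.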

Additional observations from a re-analysis of the deposited data

How the results depend on the processing

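The alternatives changed few of the counts, while subtraction of block or neighbour medians moved several single-probe values. The count of members at least 1.5-fold lower, 2, became 1 after quantile normalization and 1 with the offset, because the interferon activated gene 203 probe then lay under 1.5-fold. It became 0 at 174.8, double the signal threshold, where fewer probes were detected. The count at least 2-fold lower, 1, became 0 with the offset, which shrinks ratios by construction, and 0 at the doubled threshold, where the treated signal of myxovirus resistance 1 was too dim. Detected members numbered 12, or 7 at the doubled threshold. The median log2 ratio of 0.09 became -0.16 over all 56 members, most of them dim. Other summary values, 51 in all, stayed within 1.5 times or within the SD of the lambda spots. Among them was the median of the detected members, at 0.20 with blocks centred and 0.21 after subtraction of neighbours' medians. Higher counts of detected members were also among them. These were 18 with the threshold at the mean of the lambda spots, 14 after quantile normalization and 13 after division by the median. Of the single-probe values, 80 stayed within that SD and 16 moved further. The 80 include values from the authors' ratio, which equals the quotient used here. Ccl1, Ccl2, Ccl27a and Irf9 moved further with both block and neighbour subtraction, and Ccr1l1, Cxcl5 and Cx3cl1 with blocks centred. Over all probes detected on both arrays, 12 were at least 2-fold higher and 18 lower, or 1 and 3 with the offset, 10 and 24 after loess, 15 and 17 with blocks centred and 16 and 15 after subtraction of neighbours' medians. No paired analysis was possible because each group had 1 sample, and no replicate could be left out.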

Other observations

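The probe left out for the word kinase, an interferon-inducible activator of the kinase that senses double-stranded RNA, had 37.8 with TGF-beta1 and 38.1 without, under the threshold on both arrays. Ackr1, a chemokine-binding receptor that does not signal, had 78.5 with TGF-beta1 and 53.7 without, and Ccrl2 had 44.1 with TGF-beta1 and 34.1 without, both under the threshold and both singled out after their values were seen. Other letters searched in the promoter windows are given as shares, with no test made. TTCNNNGAA, a form of the gamma-activated site, stood in 17.4% of member windows and 8.3% of all, GGGA, 4 bases and CC, a form of the NF-kappaB site, in 23.9% and 20.7%, and CAGACA, letters bound by SMAD proteins, in 28.3% and 21%. Some genes have several windows. Counted by gene, these letters stood in 8, 9 and 11 of the 39 member genes, against 9.55%, 22.9% and 23.6% of all genes. GTCTAGAC, the palindromic SMAD letters, stood in 0 of 46 member windows and in 0.213% of all.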
